A study of Mus musculus with 9 samples.

Results

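Metallothioneins are small, cysteine-rich proteins that bind zinc and copper, and the zinc transporters move zinc across membranes. Described here, in mouse liver, are 8 genes of this system: the metallothioneins *Mt1* and *Mt2*, the metal-sensing transcription factor *Mtf1*, the exporters *Slc30a1* and *Slc30a10*, and the importers *Slc39a4*, *Slc39a8* and *Slc39a14*. They are 8 of the 19505 gene symbols on the array, and each was read by 1 of its 22206 transcript clusters, the array's unit of measurement. The genes were chosen by name, and the choice was made with the difference of *Mt1* and *Mt2* between vehicle-treated ob/ob and wild-type livers already known. Their values in that comparison are therefore given as a description and carry no test.

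The study asked how an extract of *Vigna umbellata*, the rice bean, altered gene expression in the liver of ob/ob mice. These mice lack functional leptin, an adipocyte hormone that limits food intake, and they become obese with a fatty liver. The ob/ob extract group was C57BL/6JHamSlc-ob/ob mice gavaged with the extract at 100 mg/kg. The ob/ob vehicle group was the same strain given vehicle, and the wild-type vehicle group was C57BL/6JHamSlc-+/+ mice given vehicle. All mice were male, 6 weeks old when brought in, acclimatised for 1 week, kept on standard chow throughout, and treated for 42 days. Each group had 3 arrays, each taken as 1 mouse because the design text gives 3 mice per group. Wild-type mice given the extract were not analysed here. Leptin is missing from the whole animal in this model, so the genotype is not specific to the liver.

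Zinc entering a cell is bound by metallothioneins, and free zinc activates MTF1, which binds metal response elements in the promoters of *Mt1*, *Mt2* and *Slc30a1* in the mouse. Proteins of the SLC39 (ZIP) family bring zinc into the cytoplasm, and those of the SLC30 (ZnT) family carry it out of the cytoplasm into organelles or out of the cell. In liver, *Mt1* and *Mt2* are also induced by glucocorticoids and by interleukin 6 during inflammation.

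The annotated upstream sequences of *Mt1*, *Mt2* and *Slc30a1* are printed because they are textbook targets of MTF1, and *Mt1* and *Mt2* carry the largest differences below. Each is the 250 bases before the annotated start, 5′ to 3′ on the plus strand of RefSeq assembly GRCm38.p6, in lower case, with matches to the core of the metal response element in capitals. The *Mt1* window is chr8:94178839-94179088, the *Mt2* window chr8:94172368-94172617 and the *Slc30a1* window chr1:191906531-191906780.
Mt1: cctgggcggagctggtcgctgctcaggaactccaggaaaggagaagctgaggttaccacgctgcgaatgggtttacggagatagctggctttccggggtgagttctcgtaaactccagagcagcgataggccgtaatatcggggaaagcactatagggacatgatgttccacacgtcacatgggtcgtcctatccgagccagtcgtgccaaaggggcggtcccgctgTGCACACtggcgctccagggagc
Mt2: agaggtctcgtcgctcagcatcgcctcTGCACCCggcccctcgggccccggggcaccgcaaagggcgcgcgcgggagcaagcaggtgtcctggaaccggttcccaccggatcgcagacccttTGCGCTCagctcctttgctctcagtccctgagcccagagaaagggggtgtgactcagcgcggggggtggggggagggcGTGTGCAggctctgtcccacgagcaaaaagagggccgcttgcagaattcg
Slc30a1: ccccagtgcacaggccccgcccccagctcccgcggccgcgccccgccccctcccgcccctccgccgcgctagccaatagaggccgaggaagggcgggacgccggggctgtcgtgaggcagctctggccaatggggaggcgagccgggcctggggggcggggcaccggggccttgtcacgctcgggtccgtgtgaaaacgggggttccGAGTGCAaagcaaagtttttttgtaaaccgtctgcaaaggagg

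The core was searched as TGCACNC and TGCGCNC on both strands, with overlapping matches merged, over 300 bases running from 250 before to 50 after each start. *Mt2* held 4 matches, at −223 to −217, −128 to −122, −50 to −44 and 5 to 11 bases from the start, the last 2 on the opposite strand. *Mt1* held 3, at −23 to −17, 3 to 9 and 21 to 27, and *Slc30a1* held 2, at −43 to −37 and 31 to 37, both on the opposite strand. Of 32851 windows of this length in the annotation, 25.7% held at least 1 match, 6.14% at least 2, 1.31% at least 3 and 0.295% at least 4. *Slc30a10* held 2, *Slc39a8* held 0 at one of its annotated starts and 1 at the other, and *Mtf1* held 0. In all, 6 of the 8 genes had a window, the genes without one being *Slc39a4* and *Slc39a14*. The core of the antioxidant response element, TGACNNNGC on both strands, was found once in *Mt2* (−79 to −71), once in *Slc30a1* (−82 to −74) and once at a start of *Slc39a8*, and 12.4% of all windows held it. It overlapped no metal response element core in these windows. A match of letters is a description of the sequence and does not show that a factor binds there. Sites more than 50 bases past an annotated start were not searched, so the counts hold for these windows only and not for whole promoters. Whether the annotated start is the one used in liver was not tested.

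**Figure D1:**
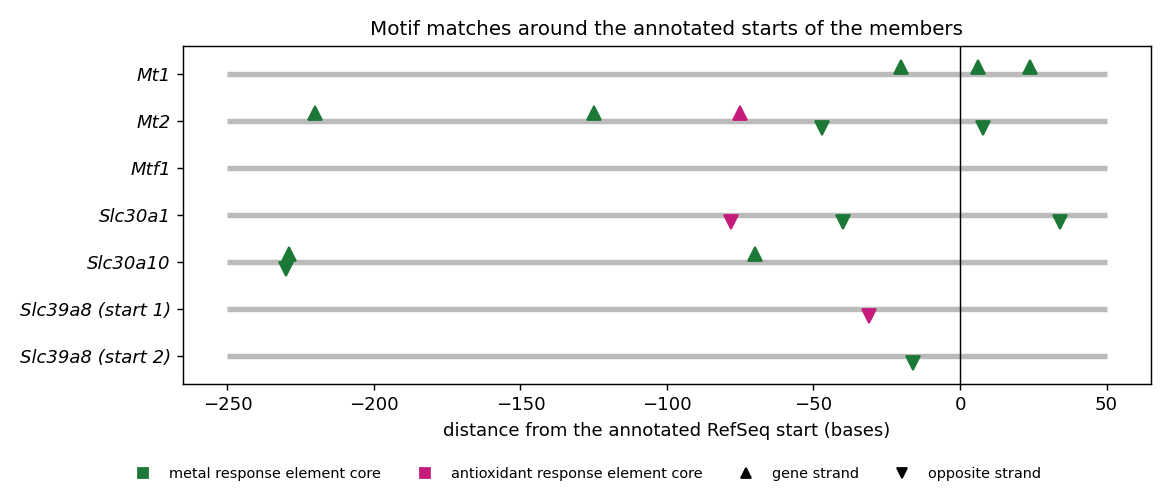
Positions of motif matches around the annotated starts of the 6 genes with a window (7 starts, as *Slc39a8* has 2); the horizontal axis is the distance from the start in bases, symbols pointing up are on the gene's strand and those pointing down on the opposite strand. Within these windows *Mt2* carries 4 metal response element cores and *Mt1* 3, while *Mtf1* carries 0.

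Values are log2 expression from the deposited table, in which the arrays had medians of 5.07 to 5.36. Ob/ob vehicle 3 and wild-type vehicle 3 stood apart. They correlated with their own groups at 0.948 to 0.955, and their interquartile ranges, 3.26 and 3.01, were the narrowest of the 9 arrays. Hepatocyte markers were near the top of the scale on all arrays (mean of 5 genes 18.59 to 18.91 for ob/ob extract, 18.42 to 18.78 for ob/ob vehicle and 18.99 to 19.28 for wild type). *Alb* and *Ttr* were at or near each array's highest value, where a change may not show. Between ob/ob vehicle and wild type, *Apoa1* differed by −1.44 and *Cps1* by −0.95. *Serpinc1*, *Ttr* and *Alb* differed by −0.27, 0.04 and 0.08, and 0 of the 5 was called in any comparison. Of 5 neutrophil markers, *S100a8*, *Elane* and *Ngp* stayed within the range of olfactory receptor genes, which are silent in liver, on every array, while *S100a9* was above it on 6 of 9 arrays (up to 7.23) and *Mpo* on 1. The mean of 5 Kupffer cell and macrophage markers was 5.68 to 6.92 for ob/ob extract, 6.95 to 7.35 for ob/ob vehicle and 6.48 to 7.10 for wild type, and 0 of these 5 genes was called in any comparison. As whole liver was measured, fewer cells of a type and less RNA per cell cannot be told apart.

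A gene was counted as detected on an array if it lay above the 97.5th percentile of 1091 olfactory receptor clusters there. Of the 8 genes, 7 were above it on all 9 arrays. *Slc30a1* was above it on 7 arrays, the exceptions being ob/ob vehicle 3 and wild-type vehicle 3, so its value on these 2 arrays is not shown to be above background. Levels of different genes are not compared, since each comes from its own probes.

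*Mt1*, a zinc- and copper-binding metallothionein, had 14.15, 17.47 and 16.70 log2 in ob/ob extract livers, 16.86, 16.49 and 17.27 in ob/ob vehicle livers, and 11.69, 12.47 and 10.75 in wild-type livers. All 6 ob/ob arrays lay above all 3 wild-type arrays. Within ob/ob mice the extract and vehicle arrays overlapped, and the extract group held both the highest value (array 2) and the lowest (array 1). The group means were 16.11 ± 1.74 for ob/ob extract, 16.87 ± 0.39 for ob/ob vehicle and 11.64 ± 0.86 for wild type (SD, n = 3 each). The difference of ob/ob vehicle minus wild type was 5.24 on the log2 scale (SE 0.74), a linear ratio of 37.7.

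*Mt2*, the neighbouring metallothionein gene, had 10.00, 15.89 and 12.63 log2 in ob/ob extract livers, 15.44, 14.31 and 16.20 in ob/ob vehicle livers, and 9.01, 7.99 and 7.85 in wild-type livers. The lowest ob/ob array, extract 1, was 10.00, against 9.01 on the highest wild-type array, so that the ob/ob and wild-type arrays again did not overlap. The 3 extract arrays ran from just above the wild-type arrays to within the ob/ob vehicle range. The group means were 12.84 ± 2.95 for ob/ob extract, 15.32 ± 0.95 for ob/ob vehicle and 8.28 ± 0.63 for wild type (SD, n = 3 each). The difference of ob/ob vehicle minus wild type was 7.03 (SE 1.15), a linear ratio of 131. *Mt4*, *Mt3*, *Mt2* and *Mt1* are consecutive protein-coding genes on chromosome 8.

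In each ob/ob group both metallothioneins ranked the arrays in the same order. In wild type they did not, as wild-type vehicle 2 was highest for *Mt1* and wild-type vehicle 1 for *Mt2*, by 0.83 and 0.73 above the group mean. Pearson's r between *Mt1* and *Mt2* was 0.949 over the 9 arrays and 0.839 for the deviations of each array from its group mean. Extract 1 lay below its group mean by the most for both genes, with deviations of −1.96 for *Mt1* and −2.84 for *Mt2*. Extract 2 lay above it by the most, with 1.36 and 3.05. These correlations describe arrays that share groups and a normalization, and they carry no p. The 2 genes are paralogs, and whether their probes share signal was not tested. The clusters of the 8 genes held no values identical to those of another cluster.

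**Figure D2:**
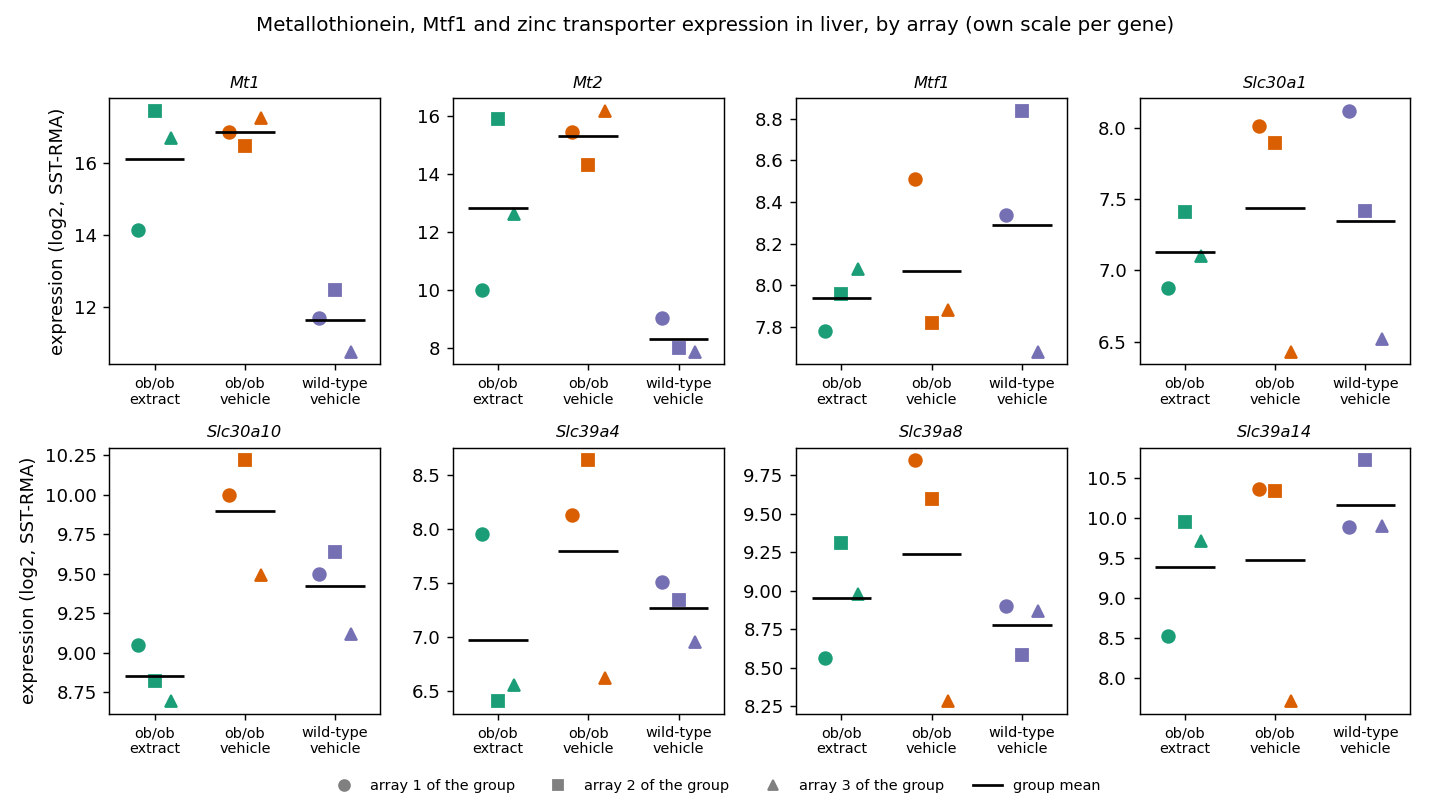
Log2 expression of each gene on the 9 arrays (SST-RMA values, own vertical scale per gene); symbols mark array 1, 2 or 3 of the ob/ob extract, ob/ob vehicle and wild-type vehicle groups and bars the group means. All 6 ob/ob arrays lie above the 3 wild-type arrays for *Mt1* and *Mt2*, and for *Slc30a10* the 3 extract arrays lie below the other 6.

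*Mtf1*, which encodes the zinc-finger factor that activates both metallothionein genes when zinc rises, had 7.78, 7.96 and 8.08 log2 in ob/ob extract livers, 8.51, 7.82 and 7.88 in ob/ob vehicle livers, and 8.34, 8.84 and 7.68 in wild-type livers. The groups overlapped in every pairing. The means lay within 0.35 log2 of each other, at 7.94 ± 0.15 for ob/ob extract, 8.07 ± 0.38 for ob/ob vehicle and 8.29 ± 0.58 for wild type (SD, n = 3 each). The difference of ob/ob vehicle minus wild type was −0.22 (SE 0.32), and with 1 array left out it ran between −0.52 and 0.06, the sign turning without wild-type vehicle 2.

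*Slc30a1* encodes ZnT1, the zinc exporter of the plasma membrane. It had 6.88, 7.41 and 7.10 log2 in ob/ob extract livers, 8.01, 7.89 and 6.43 in ob/ob vehicle livers, and 8.12, 7.42 and 6.52 in wild-type livers. The lowest value of each vehicle group was that of the array that stood apart, and the groups overlapped. The difference of ob/ob vehicle minus wild type was 0.09 (SE 0.48), and it was −0.12 after quantile normalization and between −0.33 and 0.60 with 1 array left out. Its direction therefore depended on the scaling and on single arrays.

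*Slc30a10* encodes a transporter of the same family that exports manganese in mouse and human. It had 9.05, 8.82 and 8.69 log2 in ob/ob extract livers, 10.00, 10.22 and 9.49 in ob/ob vehicle livers, and 9.50, 9.64 and 9.12 in wild-type livers. All 3 extract arrays lay below all 6 vehicle-treated arrays, by 0.07 log2 at the narrowest, between extract 1 and wild-type vehicle 3. The ob/ob vehicle and wild-type arrays overlapped through ob/ob vehicle 3, and their difference was 0.48 (SE 0.27), or 0.12 after quantile normalization. Group means were 8.85 ± 0.18 for ob/ob extract, 9.90 ± 0.37 for ob/ob vehicle and 9.42 ± 0.27 for wild type (SD, n = 3 each).

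*Slc39a4* encodes ZIP4, the importer that takes up dietary zinc in the intestine and is mutated in the human zinc deficiency acrodermatitis enteropathica. It had 7.95, 6.40 and 6.55 log2 in ob/ob extract livers, 8.13, 8.64 and 6.62 in ob/ob vehicle livers, and 7.51, 7.34 and 6.95 in wild-type livers. Wild-type arrays lay between the extremes of both ob/ob groups, and the difference of ob/ob vehicle minus wild type was 0.53 (SE 0.53), between 0.11 and 1.12 with 1 array left out.

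*Slc39a8* encodes ZIP8, an importer of zinc and manganese. It had 8.56, 9.31 and 8.98 log2 in ob/ob extract livers, 9.85, 9.60 and 8.28 in ob/ob vehicle livers, and 8.90, 8.58 and 8.87 in wild-type livers. The difference of ob/ob vehicle minus wild type was 0.46 (SE 0.39), between 0.16 and 0.94 with 1 array left out and 0.14 after quantile normalization. Ob/ob vehicle 1 and 2 lay above every other array, and ob/ob vehicle 3 lay below every other array.

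*Slc39a14* encodes ZIP14, which imports zinc, manganese and iron into hepatocytes and is induced by interleukin 6 in mouse liver. It had 8.52, 9.95 and 9.71 log2 in ob/ob extract livers, 10.37, 10.34 and 7.70 in ob/ob vehicle livers, and 9.89, 10.73 and 9.90 in wild-type livers. Ob/ob vehicle 3 was again the lowest of the 9 arrays, and the groups overlapped. The difference of ob/ob vehicle minus wild type was −0.70 (SE 0.67), and without ob/ob vehicle 3 it was 0.18. On that array all 5 transporters were at the lowest level of their group, while *Mt1* and *Mt2* were at the highest. The deviations of *Slc39a8* and *Slc39a14* from their group means correlated at 0.879 over the 9 arrays, and those of *Slc30a10* and *Slc39a4* at 0.872, with ob/ob vehicle 3 the lowest point in all 4 genes.

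For ob/ob vehicle against wild type, the comparison behind the choice of genes, 2 of the 8 were above and 0 below at an adjusted p under 0.05 in limma, against 2.28% of all clusters above and 0.68% below. The groups did not overlap for 2 of the 8, *Mt1* and *Mt2*, against 19.5% of all clusters. Nothing is read from these counts. With both arrays that stood apart left out, the differences were 4.60 for *Mt1*, 6.38 for *Mt2*, 0.98 for *Slc39a8*, 0.96 for *Slc39a4*, 0.54 for *Slc30a10*, 0.18 for *Slc30a1*, 0.04 for *Slc39a14* and −0.42 for *Mtf1*. With all arrays kept, 6 of the 8 differences were positive and 2 negative, with a median of 0.47 against −0.06 over all clusters.

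The comparison of extract with vehicle in ob/ob mice asked what the extract changed. In it 0 of the 8 genes passed the threshold in limma, against 0% of all 22206 clusters. The looser rule in the design text asks for a fold over 1.1 and p under 0.05 without adjustment. By it 1 of the 8 passed, *Slc30a10*, against 6.45% of all clusters. The groups did not overlap for 1 of the 8, again *Slc30a10*, against 13.6% of all clusters, so this count is close to the background. All 8 differences were below 0, with a median of −0.54 against −0.01 over all clusters. This comparison uses the ob/ob vehicle arrays that also entered the choice of *Mt1* and *Mt2*, and so is not independent of it.

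*Mt1* differed by −0.77 between extract and vehicle in ob/ob livers (SE 0.74, 95% interval −2.40 to 0.86, limma adjusted p = 0.877). Its sign rested on extract 1, without which the difference was 0.21. *Mt2* differed by −2.48 (SE 1.15, 95% interval −5.02 to 0.07, limma adjusted p = 0.769). Leaving out extract 1 took this to −1.06, and leaving out extract 2 took it to −4.00. Both intervals include 0 and reach to decreases of 2.40 log2 or more, so that these arrays cannot tell a large decrease from none.

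*Slc30a10* differed by −1.05 (SE 0.27, 95% interval −1.65 to −0.45), a linear ratio of 2.07 between vehicle and extract, with an unadjusted p of 0.00269 and an adjusted p of 0.672 in limma. The difference lay between −1.26 and −0.89 whichever array was left out, and it was not called in any of these 9 fits. With array weights, which count arrays far from their group less, it was −1.27 and was called (limma adjusted p = 0.0365). Without both arrays that stood apart it was −1.26 and was also called (limma adjusted p = 0.0316). The mean of the 5 Kupffer cell and macrophage markers was also below vehicle on all 3 extract arrays, at 5.68 to 6.92 against 6.95 to 7.35. The 5 marker differences, 4 negative and 1 positive, ran from −2.13 (*Cd5l*) to 0.15 (*Clec4f*). Their part in the *Slc30a10* difference was not tested.

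The other 5 genes differed by −0.83 (*Slc39a4*), −0.31 (*Slc30a1*), −0.29 (*Slc39a8*), −0.13 (*Mtf1*) and −0.08 (*Slc39a14*), with limma adjusted p of 0.839, 0.935, 0.921, 0.966 and 0.991. The 95% interval was narrowest for *Mtf1*, −0.85 to 0.59, and widest for *Slc39a14*, −1.55 to 1.40. All 5 intervals include 0. With both arrays that stood apart left out, *Slc39a4* differed by −1.42, *Slc39a14* by −0.96, *Slc30a1* by −0.82 and *Slc39a8* by −0.77, and none of these was called (limma adjusted p between 0.119 and 0.285). The sign turned for *Slc39a14* without extract 1 (0.36), ob/ob vehicle 1 (0.37) or ob/ob vehicle 2 (0.36), and without ob/ob vehicle 1 for *Mtf1* (0.09) and *Slc39a8* (0.01).

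**Figure D3:**
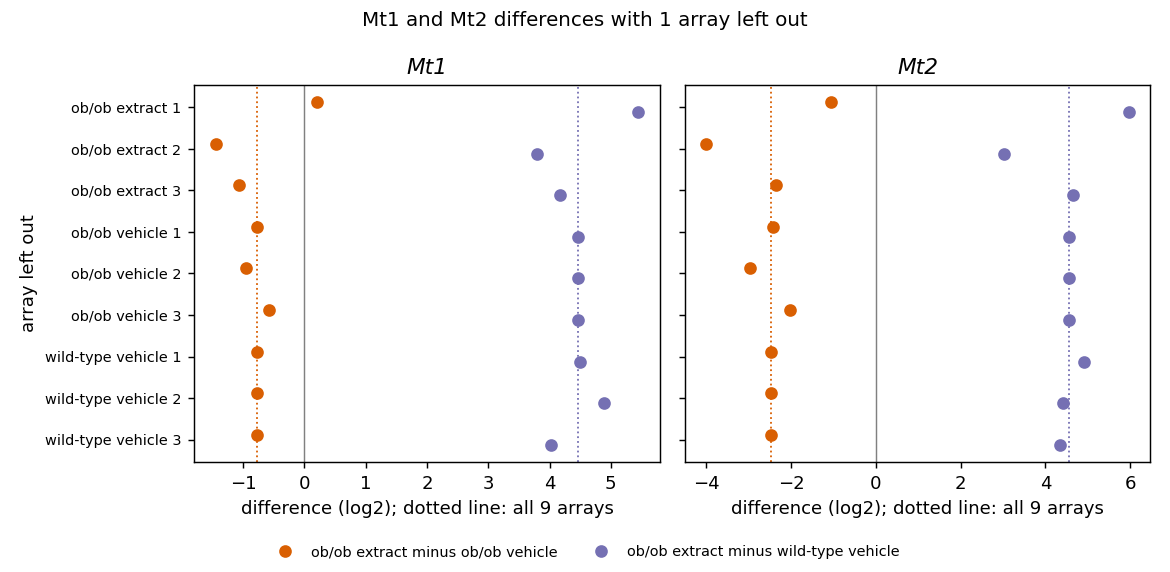
Log2 differences of *Mt1* and *Mt2* when the array named on the vertical axis is left out, for ob/ob extract minus ob/ob vehicle (orange) and ob/ob extract minus wild-type vehicle (purple), with dotted lines at the values from all 9 arrays. Against ob/ob vehicle *Mt1* runs from −1.45 to 0.21 and *Mt2* from −4.00 to −1.06, and against wild type *Mt1* runs from 3.79 to 5.45 and *Mt2* from 3.03 to 5.98.

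The comparison of extract-treated ob/ob livers with wild-type livers asked whether the ob/ob difference was still present under the extract. *Mt1* was higher in ob/ob extract than in wild type by 4.47 log2 (SE 0.74, 95% interval 2.84 to 6.10, a linear ratio of 22.2, limma adjusted p = 0.0166), and the groups did not overlap. The wild-type arrays entered the choice of *Mt1*, so this comparison is not independent of that choice, and its adjusted p is given as a description. The extract arrays are not shown to be independent of it either. Earlier results of these data were known at the choice, and the fit takes its variance from all groups. The call was lost when extract 2 (limma adjusted p = 0.0844), extract 3 (0.0762) or wild-type vehicle 3 (0.0666) was left out, and the difference stayed between 3.79 and 5.45. Under the other 8 settings tried, *Mt1* was called each time, with adjusted p between 0.00421 and 0.0259.

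*Mt2* was 4.56 log2 higher on average in ob/ob extract than in wild type (SE 1.15, 95% interval 2.01 to 7.10, a linear ratio of 23.5), without overlap between the groups, but its limma adjusted p was 0.102. With both arrays that stood apart left out, *Mt1* was higher by 4.03 (limma adjusted p = 0.0128), and *Mt2* differed by 4.34 (0.0853). *Mt2* was called with array weights (limma adjusted p = 0.036) and when extract 1 was left out (limma adjusted p = 0.023). The wild-type arrays entered the choice of *Mt2* as well, so its adjusted p and calls here are a description and not an independent test. The remaining 6 genes differed by −0.78 (*Slc39a14*), −0.57 (*Slc30a10*), −0.35 (*Mtf1*), −0.30 (*Slc39a4*), −0.22 (*Slc30a1*) and 0.17 (*Slc39a8*), with limma adjusted p between 0.382 and 0.888.

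Of the 8 genes, 1 was thus called higher and 0 lower against wild type under the extract, against 0.977% of all clusters higher and 0.315% lower. The called gene is *Mt1*, and the wild-type arrays entered its choice, so this count is not an independent test. The groups did not overlap for 3 of the 8, *Mt1*, *Mt2* and *Slc30a10*, against 21.7% of all clusters. The design text's criterion was met by 2 of the 8, *Mt1* and *Mt2*, against 14% of all clusters. The median difference was −0.26 over the 8 genes and −0.05 over all clusters. The sets of differences against wild type and against ob/ob vehicle share arrays and are therefore not set against each other.

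**Figure D4:**
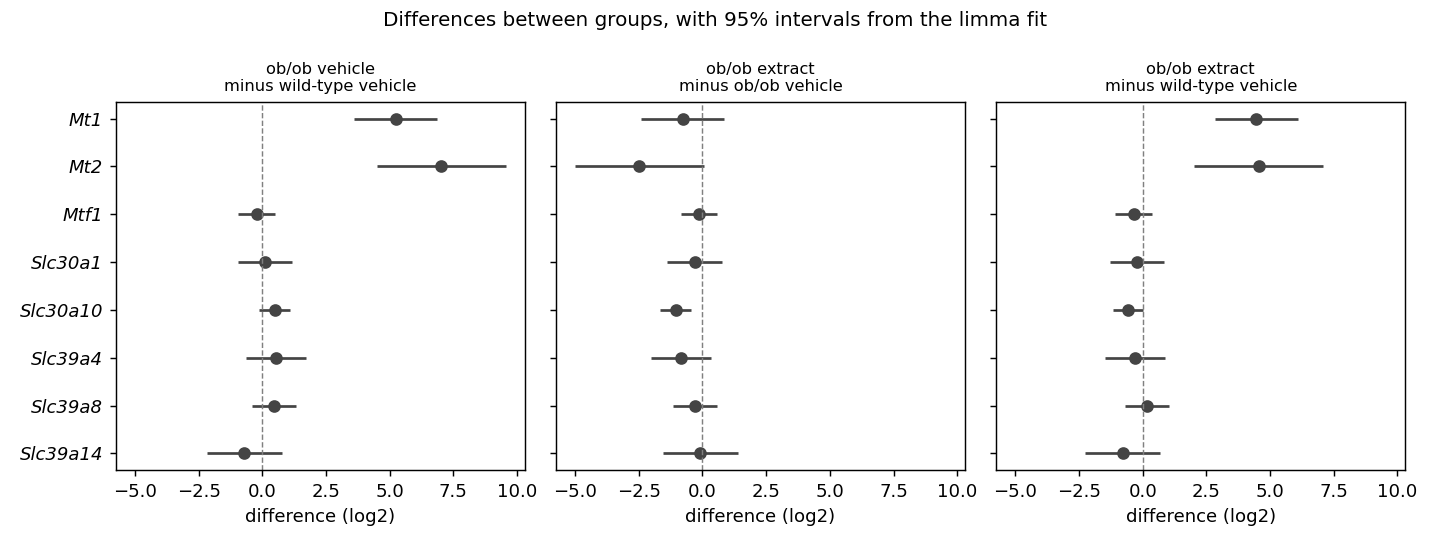
Log2 differences of the 8 genes with 95% intervals from the limma fit, for ob/ob vehicle minus wild-type vehicle, ob/ob extract minus ob/ob vehicle and ob/ob extract minus wild-type vehicle; the first panel describes the comparison behind the choice of genes. *Mt1* and *Mt2* lie at 4.47 or more in both comparisons with wild type, and *Slc30a10* is the gene whose interval lies below 0 between extract and vehicle.

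Beyond the 8 genes, the other metallothioneins on the array are *Mt3*, known for its expression in brain, and *Mt4*, known for its expression in stratified epithelium. *Mt3* lay within the olfactory receptor range on all 9 arrays. *Mt4* had 7.34, 6.69 and 6.93 log2 in ob/ob extract livers, 5.49, 6.57 and 5.74 in ob/ob vehicle livers, and 6.44, 6.36 and 6.10 in wild-type livers. *Mt4* was above the olfactory receptor range on 7 of 9 arrays, and its values on ob/ob vehicle 3 and wild-type vehicle 3 are not shown to be above background. The 3 extract arrays lay above the other 6, and the measured difference against ob/ob vehicle was 1.05 (SE 0.32, unadjusted p = 0.00706, adjusted p = 0.707 in limma). Neither gene was called in any of the 3 comparisons, and *Mt4* between extract and vehicle was the 1 case that met the looser rule.

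Among the other 8 SLC30 genes, limma called 0 in any comparison, and the looser rule was met by 3 for ob/ob vehicle against wild type, 0 for extract against ob/ob vehicle and 1 for extract against wild type, against 17%, 6.45% and 14% of all clusters. Their median difference was 0.39 for ob/ob vehicle against wild type, −0.27 for extract against ob/ob vehicle and 0.27 for extract against wild type. *Slc30a5* and *Slc30a4*, which carry zinc into compartments of the secretory pathway and vesicles, were higher on average in ob/ob vehicle than in wild type, by 1.29 (SE 0.42) and 0.87 (SE 0.28), with a limma adjusted p of 0.144 for each. *Slc30a9* differed by 0.96 (SE 0.39, limma adjusted p = 0.250). For all 3, every ob/ob vehicle array lay above every wild-type array, and wild-type vehicle 3 was the lowest of the 9. With both arrays that stood apart left out, these differences were 0.59 for *Slc30a5*, 0.45 for *Slc30a4* and 0.41 for *Slc30a9*. *Slc30a5* was called without wild-type vehicle 1 (1.78, limma adjusted p = 0.0251). *Slc30a3*, the transporter that loads zinc into synaptic vesicles of neurons, lay within the olfactory receptor range on all arrays.

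Among the other 11 SLC39 genes, 1 was called higher and 0 lower in ob/ob vehicle against wild type (2.28% and 0.68% of all clusters), and limma called 0 in the other comparisons. The looser rule was met by 6 for ob/ob vehicle against wild type, 0 for extract against ob/ob vehicle and 4 for extract against wild type (all clusters 17%, 6.45% and 14%). The called gene was *Slc39a9*, which encodes ZIP9, a zinc transporter also described as a membrane androgen receptor in human cells. It had 9.91, 9.97 and 9.82 log2 in ob/ob extract livers, 10.60, 10.16 and 9.84 in ob/ob vehicle livers, and 9.01, 8.91 and 8.74 in wild-type livers. All 6 ob/ob arrays lay above all wild-type arrays, and *Slc39a9* rose by 1.31 in ob/ob vehicle (SE 0.25, limma adjusted p = 0.0235). Against wild type the extract group was higher by 1.01 on average (SE 0.25, limma adjusted p = 0.0942). The call was lost when 1 of these arrays was removed: ob/ob vehicle 1 (limma adjusted p = 0.0993), ob/ob vehicle 2 (0.0834), wild-type vehicle 2 (0.0861), wild-type vehicle 3 (0.0779) or extract 2 (0.0508). It was also lost after quantile normalization and in the fit of only the 2 groups compared (0.0506 and 0.0919), and the difference stayed between 0.94 and 1.49 in all these fits.

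Of the remaining importers, *Slc39a1*, a zinc importer of the plasma membrane, differed by 0.73 (SE 0.25, limma adjusted p = 0.156) and *Slc39a2* by −0.76 (SE 0.26, limma adjusted p = 0.159) between ob/ob vehicle and wild type. *Slc39a2* was called in 1 of 8 other settings (limma adjusted p = 0.0321). However, it was within the olfactory receptor range on all arrays, where a difference cannot be read as expression. Between ob/ob extract and wild type, *Slc39a10* differed by −1.04 (SE 0.30, limma adjusted p = 0.147) and *Slc39a5* by 0.82 (SE 0.24, limma adjusted p = 0.160). *Slc39a5* was above the olfactory receptor range on 2 of 9 arrays.

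Metallothioneins also bind copper, and of 10 copper-handling genes limma called 0 in any comparison, with 1, 0 and 2 meeting the looser rule in the same order (all clusters 17%, 6.45% and 14%). *Atox1*, the copper chaperone that delivers copper to the export ATPases, had 8.36, 8.59 and 8.52 log2 in ob/ob extract livers, 8.67, 8.61 and 9.66 in ob/ob vehicle livers, and 7.24, 7.60 and 8.20 in wild-type livers. All ob/ob arrays lay above all wild-type arrays, with differences of 1.30 (SE 0.34, limma adjusted p = 0.0773) for ob/ob vehicle and 0.81 (SE 0.34, limma adjusted p = 0.324) for ob/ob extract. The *Atox1* difference for ob/ob vehicle was called in 3 of 8 other settings (lowest limma adjusted p 0.0181). It was called in 0 of 9 fits with 1 array left out. *Cox17*, the copper chaperone of cytochrome oxidase, and *Atp7b*, the copper-exporting ATPase of hepatocytes, differed by 1.07 and 1.09 between ob/ob extract and wild type (limma adjusted p = 0.244 and 0.368). *Atp7b* was not above the olfactory receptor range on ob/ob vehicle 3 and wild-type vehicle 3. *Slc31a2*, a relative of the copper importer, differed by −0.59 between extract and vehicle in ob/ob livers (SE 0.27, limma adjusted p = 0.769).

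Glucocorticoids and interleukin 6 are known inducers of *Mt1* and *Mt2*, so a separate list of genes for each signal was read on the same arrays. Both lists also hold receptor genes, and whether these RNA levels follow the strength of either signal was not tested. Of 11 glucocorticoid-response genes, 0 were called higher and 1 lower in ob/ob vehicle against wild type (2.28% and 0.68% of all clusters). The looser rule was met by 3, against 17% of all clusters. Of the 11 differences 10 were negative, with a median of −0.85 against −0.06 over all clusters. That median is the value of *Per1*, which had 6.36, 6.14 and 3.90 log2 in ob/ob vehicle livers and 5.97, 7.13 and 5.86 in wild-type livers. On ob/ob vehicle 3 and wild-type vehicle 3 *Per1* was not above the olfactory receptor range. The called gene was *Tsc22d3*, which encodes the glucocorticoid-induced leucine zipper. It had 10.79, 10.58 and 12.25 log2 in ob/ob extract livers, 9.52, 9.30 and 9.40 in ob/ob vehicle livers, and 10.57, 12.83 and 12.12 in wild-type livers. The ob/ob vehicle arrays lay below all others, and *Tsc22d3* fell by 2.43 on the log2 scale against wild type (SE 0.56, limma adjusted p = 0.0483). The call was kept in 3 of 9 fits with 1 array left out, where the adjusted p ran between 0.0115 and 0.17 and the difference between −3.07 and −1.94, and the arrays whose removal ended it were extract 1 and 2, ob/ob vehicle 1 and 2, and wild-type vehicle 2 and 3. It was also lost after subtracting array medians, with both arrays that stood apart left out, and in the fit of only the 2 groups compared (limma adjusted p = 0.0603, 0.0591 and 0.0919).

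Between extract and vehicle in ob/ob livers, limma called 0 of the 11, 3 met the looser rule (6.45% of all clusters), 9 differences were positive, and the median was 0.89 against −0.01 over all clusters. *Zbtb16*, a zinc-finger factor induced by glucocorticoids, had 10.32, 11.36 and 9.58 log2 in ob/ob extract livers, 8.50, 7.16 and 7.99 in ob/ob vehicle livers, and 9.87, 9.54 and 11.86 in wild-type livers. Again the ob/ob vehicle arrays lay below all others, with differences of −2.54 against wild type (SE 0.63, limma adjusted p = 0.0648) and 2.54 for extract against ob/ob vehicle (SE 0.63, limma adjusted p = 0.626). *Zbtb16* against wild type was called in 1 of 8 other settings (lowest limma adjusted p 0.0262). *Fkbp5*, which encodes a co-chaperone of the glucocorticoid receptor, differed by 2.36 between extract and vehicle (SE 0.71, limma adjusted p = 0.707). That *Fkbp5* difference was called in 2 of 8 other settings (lowest limma adjusted p 0.0273). Both genes were called in 0 of 9 fits with 1 array left out. *Tat*, the tyrosine aminotransferase of liver, differed by −1.66 between ob/ob vehicle and wild type (SE 0.73, limma adjusted p = 0.278), but by −0.78 when ob/ob vehicle 3 was dropped and by −0.68 when the pair of arrays standing apart was dropped. *Ddit4*, whose difference of 0.89 between extract and vehicle is the list median, was above the olfactory receptor range on 1 of 9 arrays. For *Mt1* and *Mt2* the ob/ob vehicle group had the highest mean of the 3 groups, and whether glucocorticoids had a part in this was not tested.

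Of 10 genes of interleukin 6 and STAT3 signalling, limma called 0 in any comparison. The looser rule was met by 3 for ob/ob vehicle against wild type, 4 for extract against ob/ob vehicle and 0 for extract against wild type, where the shares of all clusters were 17%, 6.45% and 14%. *Il6ra*, the interleukin 6 receptor subunit, had 8.97, 10.66 and 10.29 log2 in ob/ob extract livers, 8.22, 8.10 and 7.22 in ob/ob vehicle livers, and 9.14, 10.37 and 9.25 in wild-type livers. The ob/ob vehicle arrays lay below the other 6, with a difference of −1.74 against wild type (SE 0.49, limma adjusted p = 0.0939) and of 2.13 for extract against ob/ob vehicle (SE 0.49, limma adjusted p = 0.593). *Cebpb*, an acute phase transcription factor, differed by 1.62 between extract and vehicle (SE 0.35, limma adjusted p = 0.593), and *Cebpd*, its relative, by 0.86 (SE 0.39, limma adjusted p = 0.767). Between extract and vehicle, *Il6ra* and *Cebpb* were each called in 1 of 8 other settings (lowest limma adjusted p 0.045 and 0.042). Both were called in 0 of 9 fits with 1 array left out. *Cebpb* on ob/ob vehicle 3 and *Cebpd* on wild-type vehicle 3 were not above the olfactory receptor range. *Il6st*, the shared signalling subunit gp130, differed by 1.37 between ob/ob vehicle and wild type (SE 0.47, limma adjusted p = 0.162). *Il6st* was called in 1 of 9 fits with 1 array left out, without ob/ob vehicle 3 (1.89, limma adjusted p = 0.0174). Of the 8 other settings, 2 also called it. *Socs3*, a feedback inhibitor induced by interleukin 6, lay within the olfactory receptor range on all 9 arrays.

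**Figure D5:**
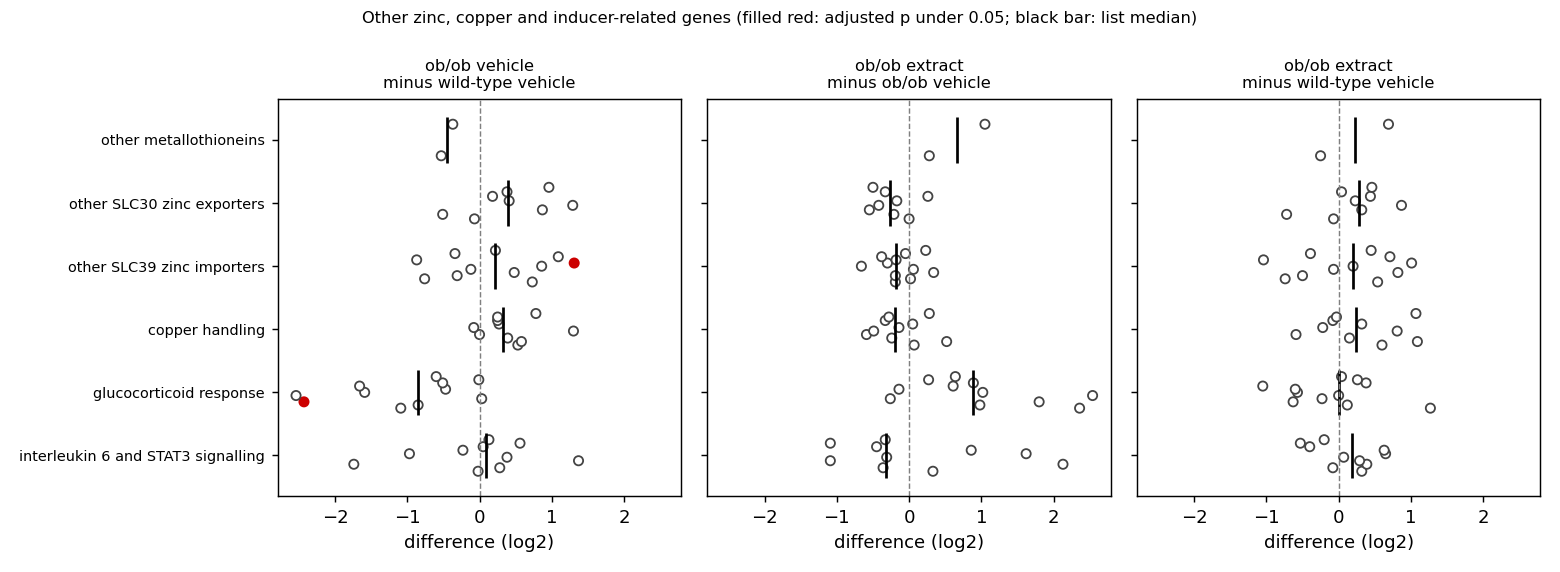
Log2 differences of the 52 other genes in 6 lists (circles, 1 per gene) for the 3 comparisons, with black bars at the list medians and red circles for genes with a limma adjusted p under 0.05. *Slc39a9* and *Tsc22d3* are the red circles, and the glucocorticoid-response list has a median of −0.85 for ob/ob vehicle minus wild type and 0.89 for ob/ob extract minus ob/ob vehicle.

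The genes whose pattern was most like that of *Mt1* over the 9 arrays, of 17169 named clusters, were *Rtn4ip1* (Pearson's r 0.982), *Efcab2* (0.963), *Acss3* (0.962), *Ctbs* (0.961), *Ctnna1* (0.960) and *Iscu* (0.960). *Efcab2* lay within the olfactory receptor range on all 9 arrays, so its values cannot be read as expression. Those most like *Mt2* were *Fbxo36* (0.963), *Abhd3* (0.953), *Mt1* itself (0.949), *Ugt3a1* (0.947), *Acadvl* (0.944) and *Dis3l* (0.942). *Acss3*, for example, had 8.72, 10.12 and 9.95 log2 in ob/ob extract livers, 9.07, 9.58 and 9.85 in ob/ob vehicle livers, and 6.33, 6.63 and 6.58 in wild-type livers. Such an r rests mostly on the gap between ob/ob and wild-type arrays. For deviations from the group means, over 7572 clusters with a mean of at least 6, the closest to *Mt1* were *Plin5* (0.960), which encodes a lipid droplet protein, *Scrib* (0.958), *Smarcad1* (0.951), *Kdm5d* (0.950), *Ciao1* (0.949) and *Ap5m1* (0.943). The closest to *Mt2* were *Wdr20* (0.953), *Acadvl* (0.913), *Azgp1* (0.912), *Hars2* (0.909), *Sirt3* (0.902) and *Atp11b* (0.894). *Plin5* had 6.76, 8.17 and 7.80 log2 in ob/ob extract livers, 6.81, 6.52 and 7.18 in ob/ob vehicle livers, and 6.01, 6.74 and 5.88 in wild-type livers. As for *Mt1*, extract 1 was the lowest and extract 2 the highest array of the extract group. On wild-type vehicle 3, *Acss3*, *Ctbs*, *Fbxo36*, *Dis3l*, *Plin5*, *Scrib*, *Wdr20*, *Kdm5d* and *Ap5m1* were not above the olfactory receptor range. Nor were *Fbxo36* and *Dis3l* on wild-type vehicle 2, or *Wdr20* and *Kdm5d* on ob/ob vehicle 3. The correlations given are the top values among the clusters searched over 9 arrays, as a description of likeness.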

How the data were processed

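Liver RNA (about 100 ng per sample, per the labels) was measured on Clariom S mouse arrays. The values deposited by the authors are log2 expression, 1 per transcript cluster and array, made with SST-RMA in Transcriptome Analysis Console 4 per the submitters' processing notes. SST-RMA widens differences, so ratios depend on it. Detection calls, background signal and the array's genome build were not used here. The number of arrays, 3 per group, limits the precision, and each p-value weighs a group difference against the spread among these samples.

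Groups followed the labels. A limma 3.58.1 model in R 4.3.3 with 1 mean per group over 9 arrays, eBayes and Benjamini-Hochberg adjustment over 22206 clusters was checked on simulated data, with calls at adjusted p under 0.05. The design text names an analysis of variance with empirical Bayes correction, which this follows. The genes, the 6 pathway lists (52 genes, all measured) and the 9 marker lists (44 of 54 genes measured, the others not used here) were chosen with earlier results of these data known. Text names all 8 genes and, per pathway list, called genes and otherwise up to 4 with the smallest p (*Mt4* and *Mt3* being all of theirs). It adds the 6 clusters most like *Mt1* and *Mt2*, leaving out predicted, olfactory, vomeronasal and small RNA genes. *Socs3*, *Per1*, the markers and the example genes of likeness were named after their values were seen.

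The labels give shared replicate numbers but no meaning for them. Deviations of same-numbered arrays from group means correlated at 0.256, 0.262 and 0.450 between ob/ob vehicle and wild type, over the limit of 0.1 for pairing. They correlated at −0.13, 0.0157 and −0.106 between extract and ob/ob vehicle, and at −0.208, −0.0412 and −0.143 between extract and wild type. The block of replicate numbers was an alternative, as were quantile normalization, median subtraction, array weights, leaving out the lowest 30% of clusters, only the 2 groups compared, a trended robust eBayes, and leaving out arrays. Promoter windows came from RefSeq GRCm38.p6.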

Additional observations from a re-analysis of the deposited data

How the results depend on the processing

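Of ob/ob vehicle against wild type, 658 clusters were called, and 2137 with array weights, 207 with only the 2 groups compared, 1745 without both arrays that stood apart, 3771 by the design text's criterion and 147 to 1679 with 1 array left out. For pathway genes the counts were 2, and 8, 0, 5, 16 and 0 to 6 in the same order. Of extract against ob/ob vehicle, 0 clusters were called, and 106 with array weights, 360 without both arrays that stood apart, 1433 by the design text's criterion and 0 to 51 with 1 array left out. Pathway genes numbered 0, and 4, 4, 8 and 0 in that order. Of extract against wild type, 287 clusters were called, and 796, 595, 3115 and 77 to 598 in that order, with 0 pathway genes, and 1, 1, 7 and 0 to 1. The replicate block gave 579, 0 and 283 clusters in the 3 comparisons and changed no call of the 8 genes.

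Leaving out 1 array turned the sign of *Mt1* (−1.45 to 0.21), *Mtf1* (−0.25 to 0.09), *Slc39a8* (−0.77 to 0.01) and *Slc39a14* (−0.96 to 0.37) for extract against ob/ob vehicle, and of *Slc30a1* (−0.64 to 0.16) and *Slc39a8* (−0.01 to 0.36) for extract against wild type. *Slc39a8* against wild type was also −0.13 after quantile normalization. The cause was not tested.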
